A study of Mus musculus with 6 samples.

Results

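The genes described here are the 10 that make, export, load or block microRNAs and that are named Drosha, Dgcr8, Xpo5, Dicer1, Tarbp2, Ago1, Ago2, Ago3, Ago4 and Lin28b. They were picked by name, and all 10 were found among the 41388 gene rows of the count table. The cells were mouse induced pluripotent stem cells (iPSCs), which are fibroblasts turned into embryonic stem cell-like cells by added transcription factors. RNA was compared between 3 miR-34a-/- lines (KO), which lack the microRNA gene Mir34a, and 3 wild-type lines (WT), all of the C57BL/6 strain. Every line, KO and WT alike, came from embryonic fibroblasts of littermate embryos, carried retroviruses for mouse Oct4, Sox2 and Klf4, was expanded from 1 picked colony and grew on irradiated fibroblast feeders. Each line gave 1 strand-specific library of poly(A)-selected RNA. The labels do not tie lines to embryos, so the p-values measure the spread between these lines.

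MicroRNAs are cut from long primary transcripts by the Microprocessor, in which the nuclease Drosha works with the RNA-binding protein Dgcr8. Exportin 5, encoded by Xpo5, carries the resulting hairpin to the cytoplasm, where Dicer1 with its partner Tarbp2 cuts out a short duplex, and 1 strand is loaded into an Argonaute protein that lowers the translation and stability of matching mRNAs. Lin28a and Lin28b are RNA-binding proteins of stem and progenitor cells that block the maturation of the let-7 family of microRNAs, and let-7 in turn represses both of them through sites in their 3′ untranslated regions (3′ UTRs).

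In the miR-34a-/- lines, 8 of the 9 measurable genes were lower than in the wild-type lines, and none was higher. Lin28b fell most, by about 2.02-fold, while the 7 general processing and Argonaute genes that were called fell by 9.82 to 20.5%. The size of these falls depended on the processing: with trends on transcript GC content removed, the log2 fold change was -0.42 for Drosha (against -0.24), -0.39 for Xpo5 (against -0.25), -0.38 for Tarbp2 (against -0.16), -0.30 for Ago1 (against -0.16) and -0.25 for Ago2 (against -0.15). The same correction moved the median log2 fold change of all tested genes from 0.01 to -0.09. Ago3, not called in the main fit, had its largest adjusted p with GC trends removed (0.45 against 0.063 in the main fit, both from edgeR). Its log2 fold change ran from -0.26 to -0.09 over 17 alternative fits. Over the same fits, that of Dicer1 ran from -0.41 to -0.29 and that of Dgcr8 from -0.29 to -0.20. For Lin28b the range was -1.10 to -0.87. Without KO line 2, 5 of the 9 were called lower, and the calls of Tarbp2, Ago1 and Ago2 were lost. Ago3 did not pass the test, and Ago4 had too few reads to be tested. A gene was called when the Benjamini-Hochberg adjusted p of edgeR's quasi-likelihood test, fitted to all 14717 genes with enough counts, was under 0.05. Differences between the genotypes were widespread: 50.5% of all tested genes were called, 24% as lower and 26.5% as higher in KO. The median log2 fold change (KO over WT) was -0.22 over the 9 tested genes and 0.01 over all tested genes. Only Lin28b was called with a change of at least 1.5-fold, as were 20.6% of all tested genes. KO and WT libraries did not overlap for 8 of the 9 genes, with Ago1 the exception, and for 56% of all tested genes.

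**Figure D1:**
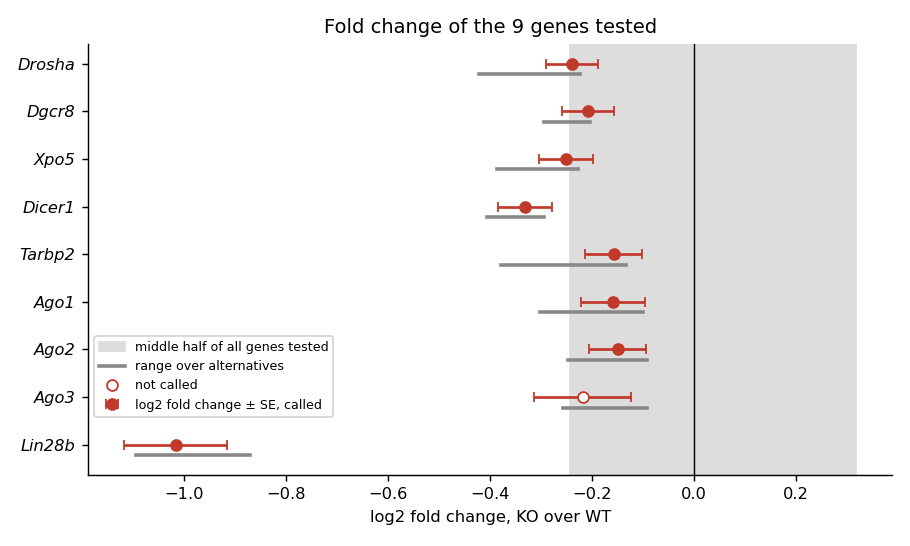
Log2 fold change (KO over WT, horizontal axis) of the 9 tested genes, with a standard error derived from the F of edgeR's quasi-likelihood test. Filled points were called and the open point (Ago3) was not. Grey lines span the alternatives, and the shaded band is the interquartile range of all tested genes. All 9 points lie below 0, and Lin28b at -1.02 lies apart from the other 8, which span -0.33 to -0.15.

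The libraries held 8721581 to 29654855 counts in KO lines and 8432597 to 25698286 counts in WT lines. KO line 3 and WT line 2 were the shallowest. The deletion could not be checked from these data, since the Mir34a row held 1, 0 and 0 counts in KO lines and 2, 0 and 0 counts in WT lines. Pluripotency markers were abundant in every library. Of the 12 markers, 10 were higher and 1 lower in KO, with summed levels of 9515 to 9980 CPM (counts scaled to library size) in KO against 7765 to 7834 CPM in WT. Of all tested genes, 26.5% were higher and 24% lower. The markers include the genes of the retroviral factors Oct4, Sox2 and Klf4. Retroviral RNA may be counted in their rows and cannot be told apart there from RNA of the cells' own genes. The genotypes also differed in Y-linked RNA, with 1 to 10 counts per KO library and 329 to 977 per WT library over 4 genes. X-linked Xist was called higher in KO, at 4.46 to 5.76 CPM against 3.00 to 3.16 CPM in WT (log2 fold change 0.62). The genotype and whatever else differs between these lines cannot be told apart. All 10 genes described here lie on autosomes, and whether the differences in Y-linked RNA and Xist bear on them or on the pathway genes was not tested.

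Both Microprocessor genes were lower in KO. Drosha, the RNase III enzyme that makes the first cut (chr15:12824815-12935291, plus strand, GRCm38/mm10), had 381, 394 and 374 CPM in KO lines, against 445, 453 and 459 CPM in WT lines. Every KO library was below every WT library. The difference of Drosha was -0.24 on the log2 scale (SE 0.051, edgeR adjusted p = 0.00062). In bulk RNA such a difference cannot tell fewer cells of a kind apart from less RNA per cell, which holds for all values below. Dgcr8, the double-stranded RNA-binding partner that recognises the hairpin (chr16:18253948-18289246, minus strand), had 108.5, 109.0 and 109.0 CPM in KO lines, against 126.7, 127.2 and 123.4 CPM in WT lines. The 3 KO values were nearly equal and lay below all WT values, a difference of -0.21 (SE 0.052, edgeR adjusted p = 0.0024). The ratio of Drosha to Dgcr8 CPM per kilobase was 4.56 ± 0.120 in KO and 4.67 ± 0.136 in WT (SD, n = 3 each), and the ranges overlapped.

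Dgcr8 holds a microRNA in its own coding exon. The hairpin of Mir1306 (chr16:18284239-18284317, minus strand, RefSeq, GRCm38.p6) is shown because the Microprocessor is known to cut hairpins in the Dgcr8 transcript; capitals mark the mature strands.
mmu-mir-1306 hairpin: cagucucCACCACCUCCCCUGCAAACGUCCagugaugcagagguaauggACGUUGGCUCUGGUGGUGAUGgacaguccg
Exons of Dgcr8 share 825 bases with Trmt2a on the opposite strand, a tRNA methyltransferase gene, and how the counting treated strand is not stated in the sources used. Trmt2a itself averaged 74.4 ± 5.02 CPM in KO and 72.0 ± 1.27 CPM in WT (SD, n = 3 each) and was not called (log2 fold change 0.04, edgeR adjusted p = 0.64).

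The export factor and both dicing genes were lower as well. Xpo5, which encodes the nuclear export receptor of pre-microRNA hairpins (chr17:46202782-46243598, plus strand), had 210, 195 and 197 CPM in KO lines, against 246, 243 and 230 CPM in WT lines. The groups did not overlap, and the difference was -0.25 (SE 0.053, edgeR adjusted p = 0.00058). Dicer1, the RNase III enzyme of the second cut (chr12:104687742-104751952, minus strand), had 157, 151 and 148 CPM in KO lines, against 201, 184 and 188 CPM in WT lines. It fell most among the 7 called processing and Argonaute genes, by 20.5% (-0.33 on the log2 scale with SE 0.053, edgeR adjusted p = 3.9e-05), and a wide gap separated the 2 genotypes. The ratio of Dicer1 to Drosha per kilobase was 0.141 ± 0.0047 in KO and 0.150 ± 0.00908 in WT (SD, n = 3 each), with overlapping libraries. Tarbp2, which encodes the TRBP partner of Dicer (chr15:102518192-102523676, plus strand), had 99.3, 93.7 and 95.5 CPM in KO lines, against 105, 104 and 112 CPM in WT lines. These groups were close but did not overlap, and the difference was -0.16 (SE 0.056, edgeR adjusted p = 0.024). The Tarbp2 call was lost without KO line 2 (adjusted p = 0.11) or without WT line 3 (adjusted p = 0.074), in edgeR's fit, within a range of 2.0e-11 to 0.11 over 17 alternatives. Of the 50-base stretches of its longest transcript, 88.3% occur in no annotated transcript of another gene, against 91.9% for Dgcr8 and at least 97.7% for the other 8, so part of the Tarbp2 and Dgcr8 reads may be uncertain. The shared stretches of Dgcr8 lie partly at its own locus. Its exons share 327 bases on the same strand with an overlapping gene that has no row among the counts.

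**Figure D2:**
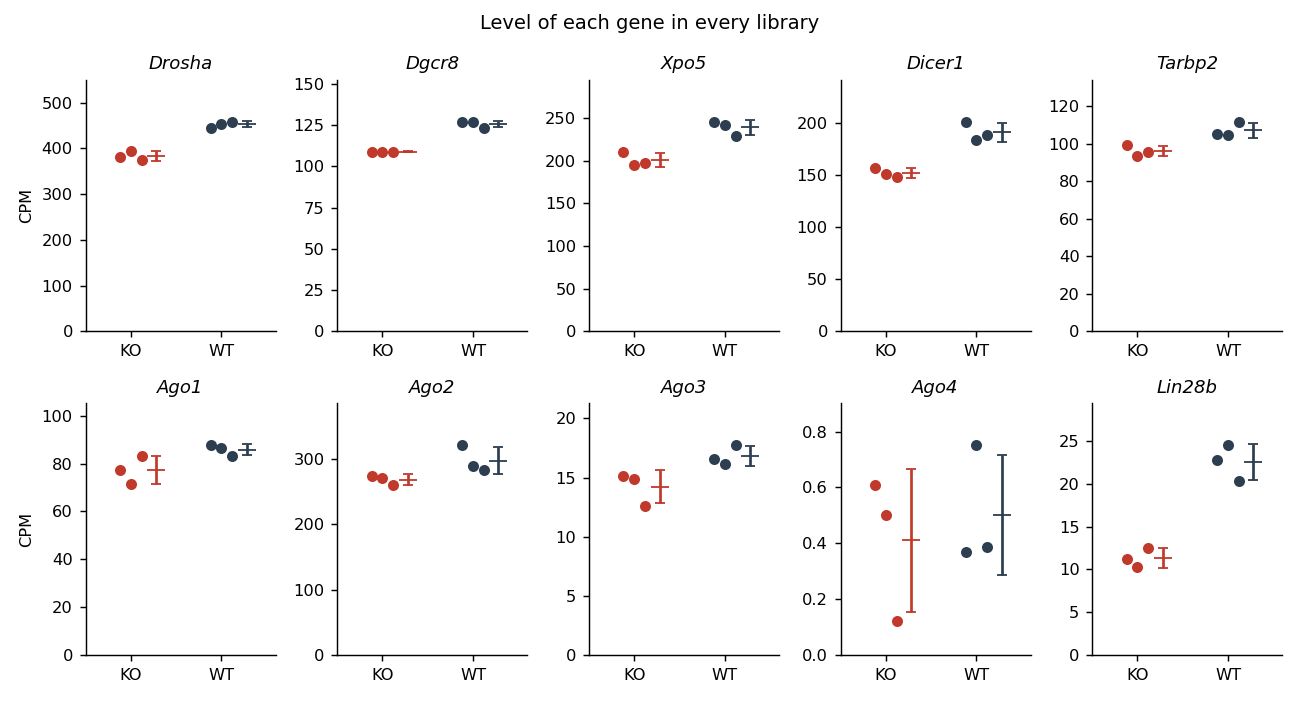
Level of each of the 10 genes in every library in CPM (linear axes from 0, 1 panel per gene), with KO lines left of WT lines; points are libraries and the bars beside them give the mean ± SD (n = 3). KO points lie below WT points except for Ago1, whose groups touch at 83.1 CPM, and Ago4, which had 1 to 14 counts per library.

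Among the Argonautes, Ago1 and Ago2 were lower by small amounts, and neither call was stable. Ago2, the only mammalian Argonaute known to slice its targets efficiently (chr15:73095844-73184935, minus strand), had 274, 271 and 259 CPM in KO lines, against 321, 289 and 283 CPM in WT lines. The WT range was wider than the KO range, and the groups did not overlap. The Ago2 difference was -0.15 (SE 0.056, edgeR adjusted p = 0.033). Its call was lost without KO line 1 (adjusted p = 0.054), KO line 2 (0.066), KO line 3 (0.070) or WT line 1 (-0.09 on the log2 scale, adjusted p = 0.22), and without both shallow libraries (0.096), in edgeR's fits. Over 17 alternatives its adjusted p ran from 6.4e-07 to 0.22. Exons of Ago2 share 219 bases with Chrac1 on the opposite strand, a chromatin remodelling subunit gene, which was itself lower (19.5 ± 0.683 CPM in KO, 24.9 ± 2.04 CPM in WT, log2 fold change -0.33, edgeR adjusted p = 0.0027).

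Ago1 (chr4:126435012-126468583, minus strand), an Argonaute that binds microRNAs and acts through the GW182 proteins, had 77.2, 71.6 and 83.1 CPM in KO lines, against 87.6, 86.4 and 83.1 CPM in WT lines. KO line 3 and WT line 3 had practically the same level. The Ago1 difference was -0.16 (SE 0.063, edgeR adjusted p = 0.041). It was lost without KO line 1 (adjusted p = 0.091), KO line 2 (-0.10 on the log2 scale, adjusted p = 0.25), WT line 1 (0.13) or WT line 2 (0.096) in edgeR, and with DESeq2 (0.074). Over 17 alternatives the adjusted p of Ago1 ran from 4.4e-07 to 0.25. Ago3 (chr4:126331704-126429556, minus strand), a less abundant Argonaute, had 15.2, 14.9 and 12.6 CPM in KO lines, against 16.6, 16.1 and 17.7 CPM in WT lines. Its KO values were all below its WT values, but with a log2 fold change of -0.22 (SE 0.095) it was not called by edgeR (adjusted p = 0.063), nor under any of 17 alternatives (0.051 to 0.45). Ago4 (chr4:126489541-126533472, minus strand), also an Argonaute, had 12, 14 and 1 counts in KO lines, against 9, 6 and 6 counts in WT lines. Its mean level was 0.411 ± 0.255 CPM in KO and 0.502 ± 0.215 CPM in WT (SD, n = 3 each), with overlapping libraries. Pooled over lines, 27 counts in KO and 21 in WT gave a ratio of KO to WT per library size of 1.10, with an exact 95% interval of 0.601 to 2.05 that covers counting error only. The means and the pooled counts thus lay on opposite sides of equality, and no direction can be given for Ago4.

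Ago1, Ago3 and Ago4 lie side by side on chromosome 4, about 23.6 to 23.7 Mb from Mir34a (chr4:150068454-150068555). Within 30 Mb of Mir34a, 155 of 502 tested genes (30.9%) were higher and 106 (21.1%) lower in KO, near the 26.5% and 24% of all tested genes, with a median log2 fold change of 0.04. Whether DNA around the targeted locus differs otherwise between the lines was not tested.

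**Figure D3:**
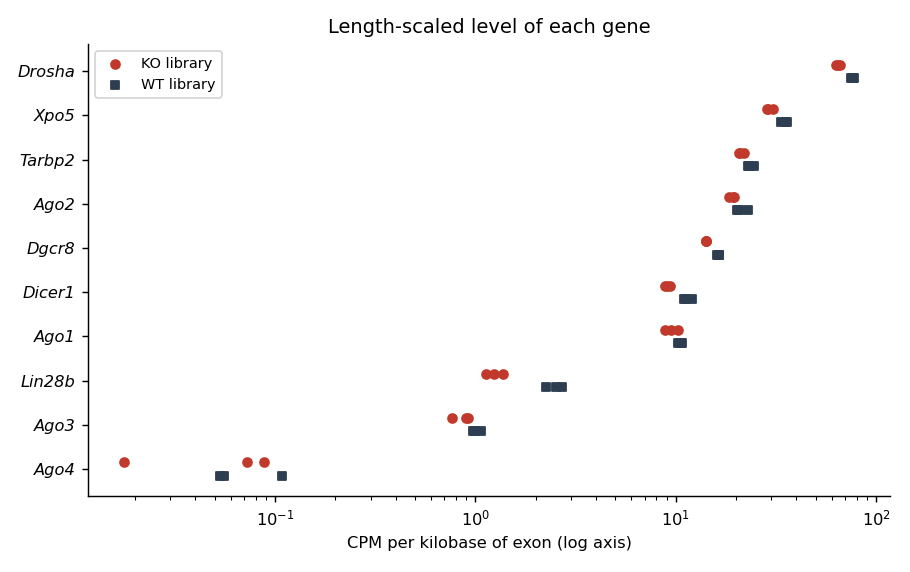
Level per kilobase of exon (CPM per kb, log axis) of the 10 genes in every library, highest genes at the top, with KO points above WT points in each row. Drosha is highest with means of 64.6 in KO and 76.2 in WT, and Ago4 lowest with 0.0591 in KO and 0.0723 in WT.

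Per kilobase of annotated exon, which allows genes to be set beside each other, the levels spanned about 3 orders of magnitude. Drosha was highest, at 64.6 ± 1.72 CPM per kb in KO and 76.2 ± 1.12 in WT (SD, n = 3 each, as for all levels in this paragraph). Xpo5 followed with 29.3 ± 1.2 in KO and 34.9 ± 1.25 in WT, then Tarbp2 with 21.1 ± 0.629 in KO and 23.6 ± 0.876 in WT, Ago2 with 19.1 ± 0.564 in KO and 21.2 ± 1.46 in WT, and Dgcr8 with 14.1 ± 0.0391 in KO and 16.3 ± 0.269 in WT. Ago1 came next in KO at 9.52 ± 0.713, where its libraries overlapped those of Dicer1 at 9.07 ± 0.259. In WT the order was the other way round, with Dicer1 at 11.4 ± 0.544 above Ago1 at 10.6 ± 0.288, without overlap. Lin28b had 1.25 ± 0.126 in KO and 2.49 ± 0.234 in WT, Ago3 0.859 ± 0.0842 in KO and 1.01 ± 0.0494 in WT, and Ago4 0.0591 ± 0.0367 in KO and 0.0723 ± 0.0310 in WT. No other neighbours in this order overlapped in either genotype. With the length of the longest transcript in place of all exons, Dgcr8 stood above Ago2, and Dicer1 above Ago1, in both genotypes.

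The makeup of the Argonaute pool at the RNA level differed between the genotypes by less than the spread between lines. Ago2 made up 64.7 ± 1.89% of the summed Argonaute level per kilobase in KO and 64.5 ± 1.19% in WT (SD, n = 3 each). Ago1 made up 32.2 ± 2.27% in KO and 32.2 ± 0.963% in WT. Ago3 contributed 2.91 ± 0.281% in KO and 3.10 ± 0.267% in WT, and Ago4 0.200 ± 0.123% in KO and 0.221 ± 0.0986% in WT. For each of the 4 genes the KO and WT libraries overlapped. The summed Argonaute level was 29.6 ± 0.488 CPM per kb in KO and 32.8 ± 1.67 in WT, and these groups did not overlap.

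Lin28b moved most. Lin28b (chr10:45376620-45486395, minus strand) had 11.2, 10.2 and 12.5 CPM in KO lines, against 22.8, 24.5 and 20.3 CPM in WT lines, from 102 to 286 counts in KO and 196 to 557 in WT. Each KO library was well below each WT library. The difference was -1.02 (SE 0.100, edgeR adjusted p = 9.3e-08), past the absolute change of 89.8% of all tested genes. It was called under all 17 alternatives, with log2 fold changes of -1.10 to -0.87. Its paralogue Lin28a (chromosome 4), which was not among the 10 genes, had 303, 280 and 324 CPM in KO lines, against 532, 531 and 460 CPM in WT lines. Lin28a was lower too, without overlap (log2 fold change -0.75, edgeR adjusted p = 4.0e-08). Per kilobase, Lin28a was far more abundant than Lin28b, at 75.7 ± 5.57 CPM per kb in KO and 127 ± 10.3 in WT (SD, n = 3 each). The ratio of Lin28b to Lin28a was 0.0165 ± 0.000471 in KO and 0.0196 ± 0.000721 in WT, without overlap between the genotypes.

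MicroRNAs of 3 families bear on these genes: let-7, which Lin28 proteins block; miR-34a, which the KO lines lack; and the miR-290 cluster, the main microRNA cluster of mouse pluripotent cells. Their mature sequences (RefSeq, GRCm38.p6) are shown with the seed, bases 2 to 8, in capitals. All 9 let-7 and miR-98 sequences in that table share the seed of let-7a, miR-34b shares that of miR-34a, and miR-291a-3p and miR-295-3p share that of miR-294.
mmu-let-7a-5p: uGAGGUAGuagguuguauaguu
mmu-miR-34a-5p: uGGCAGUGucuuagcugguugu
mmu-miR-294-3p: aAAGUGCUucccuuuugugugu
The let-7g hairpin (chr9:106178840-106178927, plus strand) is shown because its loop side carries the GGAG letters, in capitals, that Lin28 is known to bind.
mmu-let-7g hairpin: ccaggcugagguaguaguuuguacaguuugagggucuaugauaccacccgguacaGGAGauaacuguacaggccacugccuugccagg

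Letters matching the seeds were looked for in the sense strand of 13401 3′ UTRs of tested genes (GENCODE M21, 1 transcript per gene): CTACCTC for let-7, CACTGCC for miR-34a and AGCACTT for miR-294. These occurred at least once in 9.76%, 15.97% and 15.8% of the UTRs, in that order. The Lin28b UTR of 4445 bases held 4 let-7 matches, a number reached by 10 of the UTRs (0.0746%), and 1 miR-294 match. The Lin28a UTR of 2775 bases held 2 let-7 matches, a number reached by 1.19% of the UTRs, and 2 miR-34a matches, a number reached by 2.96%. These shares are over UTRs of all lengths. By length, the Lin28b UTR lay at percentile 94.9 and the Lin28a UTR at percentile 84.3. The sites of both genes follow, all on the minus strand, with the match in capitals.
Lin28b let-7, chr10:45381022-45381044: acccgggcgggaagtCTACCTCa
Lin28b let-7, chr10:45378648-45378670: tatacttgttagtaaCTACCTCt
Lin28b let-7, chr10:45378476-45378498: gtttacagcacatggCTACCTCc
Lin28b let-7, chr10:45377060-45377082: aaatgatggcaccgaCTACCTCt
Lin28a let-7, chr4:134005189-134005211: gcacagcctgttgaaCTACCTCa
Lin28a let-7, chr4:134004551-134004573: gagatcgccacaaacCTACCTCa
Lin28a miR-34a, chr4:134005989-134006011: tgcgtgggtagcttgCACTGCCg
Lin28a miR-34a, chr4:134004803-134004825: ttgtgctaggaagtaCACTGCCa
The first Lin28b site begins 36 bases into the UTR and the last lies at base 3998.

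The other genes differed widely in such matches. Ago2, with a UTR of 11064 bases, held 3 let-7 and 2 miR-34a matches, and Ago3, with 12742 bases, held 1 let-7, 1 miR-34a and 3 miR-294 matches. Both UTRs are among the longest, at length percentile 99.9. Xpo5 held 1 miR-34a match in 1327 bases, Ago4 held 2 miR-34a matches in 3682 bases, and Tarbp2 held 1 let-7 match in 334 bases. Drosha, Dgcr8, Dicer1 and Ago1 held none of the 3 in UTRs of 168, 1574, 3851 and 4491 bases. Coding sequences were not searched, and Dicer1 is among the reported let-7 targets listed below. The miR-34a matches of the 2 called genes that have them follow. Both genes were lower in KO, and whether miR-34a acts on them was not tested. Xpo5 lies on the plus strand and Ago2 on the minus strand.
Xpo5 miR-34a, chr17:46242337-46242359: tctaggccctcctcgCACTGCCg
Ago2 miR-34a, chr15:73106345-73106367: agtgtctctcgaggtCACTGCCt
Ago2 miR-34a, chr15:73103556-73103578: ctccaggccacagggCACTGCCa
A letter match is a description and does not show that a microRNA acts there.

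**Figure D4:**
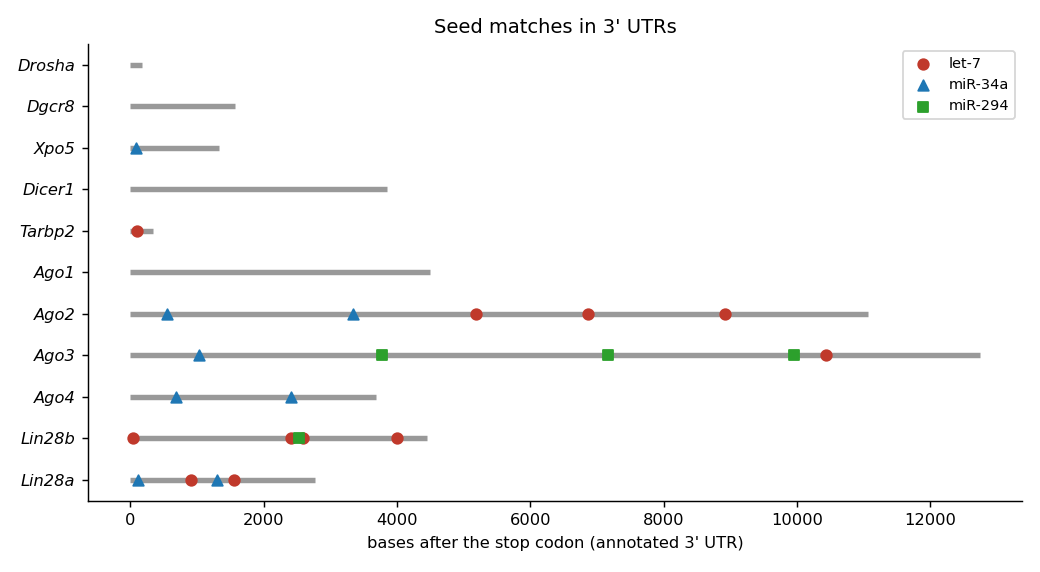
Position of each 7-base seed match for let-7, miR-34a and miR-294 along the 3′ UTR (grey bar, bases after the stop codon) of the 10 genes and of Lin28a. Lin28b has the most let-7 matches, 4, and the UTRs of Drosha, Dgcr8, Dicer1 and Ago1 have no match of any of the 3 families.

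Around these 10 genes, 11 lists of pathway genes were examined, holding 159 tested genes other than the 10. Of these, 64 (40.3%) were lower and 30 (18.9%) higher in KO, against 24% and 26.5% of all tested genes, and their median log2 fold change was -0.12. Among the 22 Microprocessor cofactors and regulators of primary transcripts, 9 were lower and 3 higher. The cap-binding subunit gene Ncbp2 had 37.1 ± 3.73 CPM in KO and 51.8 ± 1.83 CPM in WT (log2 fold change -0.50, edgeR adjusted p = 1.2e-05). Srsf3, a splicing factor gene, had 307 ± 0.545 CPM in KO and 413 ± 23.9 CPM in WT (-0.43, edgeR adjusted p = 2.3e-06; SD, n = 3 each). The RNA helicase gene Ddx5 was lower at 491 ± 60.1 CPM in KO and 597 ± 16.3 CPM in WT (-0.28, edgeR adjusted p = 0.0031). The RNA-editing gene Adarb1 was higher by 0.29 (edgeR adjusted p = 0.025), and the call was lost under 8 of 17 alternatives, among them those without KO line 1 (0.073), KO line 2 (0.081), WT line 2 (0.074) or WT line 3 (0.18 on the log2 scale, adjusted p = 0.17), within a range of 0.0032 to 0.54. The zinc finger gene Zc3h7b was higher by 0.19 (edgeR adjusted p = 0.0052), but lay at -0.04 (adjusted p = 0.59) once trends on transcript GC content were removed, and its call was lost in both fits with that correction (adjusted p from 0.0012 to 0.60 over 17 alternatives). Without KO line 2 or without WT line 2 this list had 5 lower and 1 higher.

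Among 5 tested export and Dicer partners, 1 was lower and none higher, where 24% of all tested genes were lower and 26.5% higher. The exportin gene Xpo1 had 69.9 ± 5.08 CPM in KO and 86.5 ± 9.61 CPM in WT (SD, n = 3 each; log2 fold change -0.29, edgeR adjusted p = 0.0043); the call was lost with GC trends removed (0.21) and without both shallow libraries (0.053), within a range of 7.7e-06 to 0.21. Prkra, which encodes the Dicer partner PACT, had 7.71 ± 0.384 CPM in KO and 9.18 ± 0.291 CPM in WT and was not called (-0.23, edgeR adjusted p = 0.0995), although its groups did not overlap. It was called with GC trends removed (-0.31, adjusted p = 0.025), in a range of 0.017 to 0.24. Without KO line 3 the list had 2 lower genes. Of the 9 genes of Lin28 and of pre-let-7 tailing and decay, 3 were lower: Lin28a, the RNA-binding protein gene Syncrip (-0.45, edgeR adjusted p = 3.9e-05) and Msi2, named here after its value was seen to complete the count. Dis3l2, the nuclease that degrades uridylated pre-let-7, was higher (32.3 ± 2.21 CPM in KO, 27.3 ± 1.2 CPM in WT, log2 fold change 0.24, edgeR adjusted p = 0.012). That call was lost without KO line 1 (0.082) or WT line 1 (0.085), which left no higher gene in the list, within a range of 7.2e-08 to 0.085. The uridylyltransferase gene Tut7 was not called (0.13, edgeR adjusted p = 0.12), nor was Tut4 of the same kind (0.08, adjusted p = 0.35), which was called with GC trends removed (0.19, adjusted p = 0.025) in a range of 0.025 to 0.61. Trim71, a ubiquitin ligase gene and let-7 target, was not called either (-0.11, edgeR adjusted p = 0.089). It was called in 4 of 17 alternatives, among them those with GC trends removed (-0.33, adjusted p = 3.0e-05) and without WT line 3 (0.037), in a range of 6.6e-11 to 0.30.

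Of 14 chaperone genes of Argonaute loading, 6 were lower and none higher, led by the Hsp90 co-chaperone genes Ptges3 (log2 fold change -0.41, edgeR adjusted p = 1.6e-05) and Fkbp5 (-0.31, adjusted p = 7.4e-05). Of all tested genes, 24% were lower and 26.5% higher. The 20 GW182 proteins and other Argonaute partners were divided, with 7 higher and 6 lower and a median of 0.00. Tnrc6c, 1 of the 3 GW182 scaffold genes, had 167, 168 and 151 CPM in KO lines, against 119, 118 and 113 CPM in WT lines. It was higher, without overlap (0.48, edgeR adjusted p = 8.9e-07). Tnrc6a (0.11, edgeR adjusted p = 0.24) and Tnrc6b (0.13, adjusted p = 0.12) were not called, and both were called without KO line 3 (0.0099 for Tnrc6a and 0.0048 for Tnrc6b), the lowest of ranges that reached 0.86 for Tnrc6a and 0.44 for Tnrc6b. In this list the LIM protein gene Ajuba was also higher (0.44), while Limd1 of the same family (-0.42) and the importin gene Ipo8 (-0.54) were lower.

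Of 18 deadenylation genes, 8 were lower and 1 higher, where 24% of all tested genes were lower and 26.5% higher. The CCR4-NOT nuclease genes Cnot7 (15.4 ± 2.06 CPM in KO, 24.7 ± 1.31 CPM in WT, log2 fold change -0.70) and Cnot6 (12.2 ± 0.664 CPM in KO, 19.8 ± 3.49 CPM in WT, -0.69) changed most (SD, n = 3 each). The higher one, Tob1 (0.23, edgeR adjusted p = 0.027), was lost without KO line 3 (0.059), WT line 1 (0.12), WT line 2 (0.11) or both shallow libraries (0.15 on the log2 scale, adjusted p = 0.19), and with DESeq2 (0.076), within a range that began at 0.0070. Of 13 decapping and 5′ decay genes, 5 were lower and 2 higher, among them Lsm14b (-0.34) and the exonuclease gene Xrn1 (-0.23), and the decapping scaffold gene Edc4 (0.26) and Dcp1a (0.15). The lower count was 3 without KO line 1, KO line 2, WT line 1 or WT line 2, and the higher count 1 without KO line 1, WT line 1 or WT line 2. The calls of Edc4 (edgeR adjusted p = 0.57), Dcp1a (0.41) and Xrn1 (0.14) were lost with GC trends removed, and that of Xrn1 also without KO line 1 (0.078). Dcp1a was called in only 9 of 17 alternatives: its call was also lost without KO line 1 (0.16), WT line 1 (0.12), WT line 2 (0.17) or both shallow libraries (0.15), with DESeq2 (0.10) and with no filter on low counts (0.12). Over 17 alternatives the adjusted p ran from 2.0e-05 to 0.57 for Edc4, from 0.020 to 0.41 for Dcp1a and from 0.0019 to 0.14 for Xrn1. Of 8 genes of microRNA turnover, 3 were lower and 1 higher. Zswim8, the ubiquitin ligase subunit of target-directed microRNA decay, was the higher one (0.26, edgeR adjusted p = 0.0022; 0.46 with GC trends removed, and otherwise down to 0.00070). The nuclease genes Eri1 (-0.38) and Pnpt1 (-0.38) were lower, Pnpt1 not so without KO line 1 (edgeR adjusted p = 0.053), KO line 2 (0.053) or WT line 3 (0.051), each of which left 1 lower gene in the list. Its call was also lost in both fits with GC trends removed (0.075 and 0.086), in a range that began at 0.00066.

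**Figure D5:**
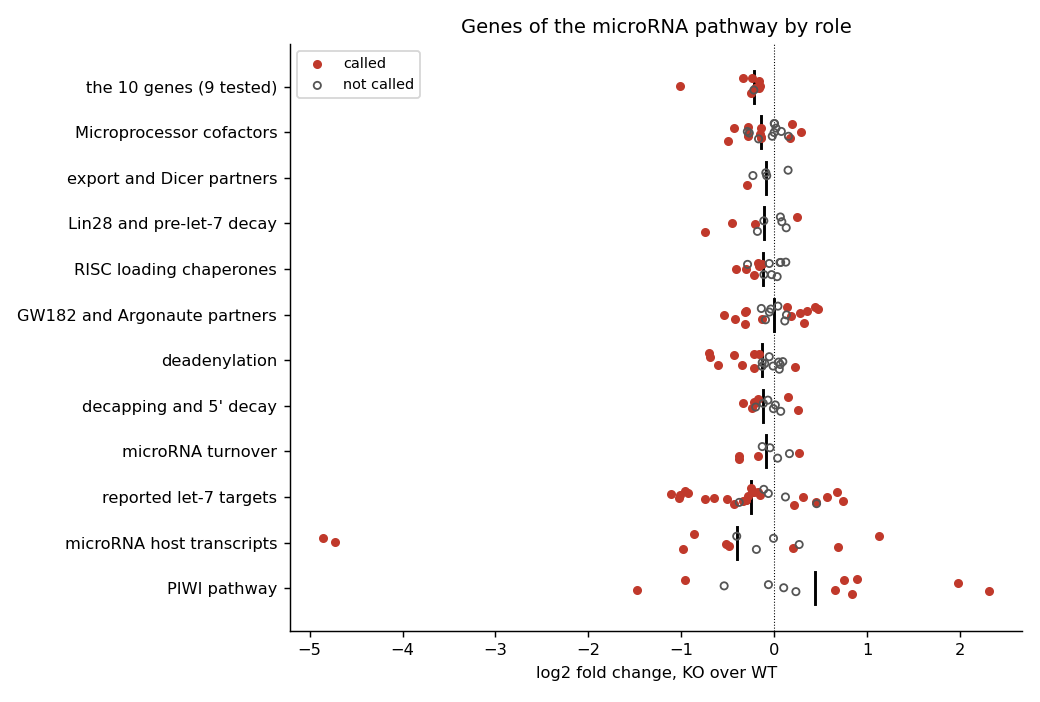
Log2 fold change (KO over WT) of every tested gene among the 10 genes and in the 11 pathway lists, 1 point per gene, filled where called and open where not, with the list median as a vertical bar. The 10 genes and the reported let-7 targets lie mostly below 0, the GW182 list is centred on 0.00 and the PIWI list has its median at 0.44.

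Of 29 tested genes reported as let-7 targets, 18 were lower and 6 higher, with a median log2 fold change of -0.25. Of all tested genes, 24% were lower and 26.5% higher. Without Dicer1 and Lin28b, the 2 that are among the 10 genes, 16 of 27 were lower and 6 higher. The orphan nuclear receptor gene Nr6a1 had 62.2 ± 3.03 CPM in KO and 127 ± 5.39 CPM in WT (SD, n = 3 each; -1.02, edgeR adjusted p = 4.3e-11), and Fign, a microtubule-severing enzyme gene, had 1.03 ± 0.179 CPM in KO and 2.31 ± 0.321 CPM in WT (-1.11, adjusted p = 0.00059). The cell-cycle transcription factor genes Myc (42.3 ± 4.18 CPM in KO, 25.5 ± 0.595 CPM in WT, 0.74) and E2f2 (0.67) were higher. The let-7 family itself could not be measured, since poly(A) libraries do not hold mature microRNAs: the 10 let-7 and miR-98 hairpin rows held 5 counts in all KO libraries and 14 in all WT libraries, and none was tested.

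Primary microRNA transcripts differed from gene to gene. Of 25 host and primary transcript genes, 13 could be tested, of which 6 were lower and 3 higher, where 24% of all tested genes were lower and 26.5% higher. Rian (2.61 ± 0.543 CPM in KO, 70.8 ± 1.89 CPM in WT, log2 fold change -4.86) and Mirg (0.315 ± 0.216 CPM in KO, 8.13 ± 1.30 CPM in WT, -4.72; SD, n = 3 each) fell most. Both are maternally expressed noncoding transcripts of the imprinted Dlk1-Dio3 region and host many microRNAs. Mir9-3hg was higher (1.12), as was 3110039I08Rik, the row paired with Mir100hg by a RefSeq synonym (0.69, edgeR adjusted p = 0.031). The other higher gene was AU018091 (0.21, edgeR adjusted p = 0.0023), named here after its value was seen to complete the count. Whether AU018091 hosts microRNAs was not tested. The call of 3110039I08Rik was lost without KO line 1 (0.14), KO line 2 (0.095), WT line 1 (0.060), WT line 2 (0.084) or WT line 3 (0.055), and with DESeq2 (0.15), within a range of 0.0058 to 0.15. Of 7 hairpin rows of the miR-290 cluster, 6 were tested and 2 were lower, with summed levels of 10.2 to 12.2 CPM in KO and 14.8 to 18.2 CPM in WT. Mir290a, Mir291a, Mir292 and Mir295 of this cluster are also among the 13 tested host and primary transcript genes. Over all 1894 microRNA hairpin rows, 16 were tested, with 2 higher and 3 lower.

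The PIWI pathway is a related small-RNA pathway of the germ line. Of its 12 tested genes, 6 were higher and 2 lower, with a median of 0.44, where 26.5% of all tested genes were higher and 24% lower. The helicase gene Mov10l1 (10.3 ± 0.823 CPM in KO, 5.76 ± 1.55 CPM in WT, log2 fold change 0.89) and Mael (8.15 ± 0.448 CPM in KO, 4.42 ± 0.849 CPM in WT, 0.84) were higher, and the Tudor domain genes Tdrd5 (2.68 ± 0.888 CPM in KO, 8.14 ± 1.49 CPM in WT, -1.48) and Tdrd12 (29.4 ± 1.31 CPM in KO, 56.5 ± 2.80 CPM in WT, -0.96; SD, n = 3 each) were lower.

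Markers of cell states also differed between the genotypes, as did 50.5% of all tested genes (24% lower and 26.5% higher in KO). Of 9 primed epiblast markers, 6 were lower and none higher, at a summed 491 to 529 CPM in KO against 935 to 987 CPM in WT. All 8 tested 2-cell markers were higher, at 109 to 125 CPM in KO against 0.615 to 1.25 CPM in WT. Fibroblast markers, which the feeders share, summed to 2508 to 2758 CPM in KO and 3018 to 3287 CPM in WT, with 11 of 17 lower and 2 higher. Trophoblast markers summed to 202 to 207 CPM in KO and 339 to 378 CPM in WT, with 4 of 7 lower and 1 higher. Neural markers summed to 204 to 217 CPM in KO and 266 to 278 CPM in WT, with 4 of 6 lower and 2 higher. Primitive endoderm markers summed to 543 to 587 CPM in KO and 546 to 634 CPM in WT, with 8 of 11 higher and 1 lower. No marker matched to a row was at 0 in all libraries. The part of these states in the differences of the 10 genes was not tested.

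With trends on transcript GC content removed, 37.0% of all called genes were higher in KO, against 52.5% without that correction, and the median log2 fold change of all tested genes was -0.09. The same correction left 8 of the 9 genes lower, with a median of -0.38. It brought the log2 fold changes of the higher genes Ajuba to 0.23, E2f2 to 0.45, Edc4 to 0.04, Dcp1a to 0.06, Zswim8 to 0.05 and Adarb1 to 0.08, and that of Dis3l2 to 0.40. Among the lower genes it gave -0.27 for Syncrip, -0.48 for Fkbp5, -0.15 for Xpo1, -0.12 for Xrn1 and -0.22 for Pnpt1.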

How the data were processed

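Gene counts of 6 poly(A) RNA libraries, 3 per genotype, were used. The authors deposited whole-number counts per gene, which the submitters' processing notes connect with TopHat2 2.0.11, featureCounts 1.4.5 and mm10; no source used here states the counting options or strand setting. A second deposited table, with 6 columns whose names match no sample label, was not used. Of 42290 rows, 902 named repeat families (5.40 to 6.16% of the counts) and were left out, also from library sizes. GENCODE M21 named 40254 of 41388 gene identifiers. Genes with enough counts by edgeR's filterByExpr (14717) were tested with edgeR 4.0.16 (R 4.3.3), with TMM scaling, a quasi-likelihood fit of genotype and Benjamini-Hochberg adjustment over all tested genes. The SE of a log2 fold change is its absolute value divided by the square root of the F of that test. The pipeline was tested on simulated data. The biological coefficient of variation was 6.27%, and no 2 libraries agreed within sampling noise. Levels are CPM on TMM-scaled library sizes. Alternatives used DESeq2 1.42.0, limma 3.58.1 and other scalings, filters, dispersions, GC trends and left-out lines. Counting precision differs between libraries, since 3 counts equal 0.107 to 0.375 CPM, and intervals cover counting error only. The 10 genes and the lists (Microprocessor cofactors, export and Dicer partners, Lin28 and pre-let-7 decay, loading chaperones, GW182 partners, deadenylation, decapping, turnover, let-7 targets, host genes, PIWI genes and cell-state markers) were chosen with earlier results of these data known. Named genes are the 10, the up to 2 called genes with the largest rise and the largest fall per pathway list at a mean of at least 1 CPM, and Lin28a, Tnrc6a, Tnrc6b, Tnrc6c, Tut4, Tut7, Dis3l2, Trim71, Ddx5, Prkra and Mir34a. Trmt2a and Chrac1 are named for their overlap with exons of the 10. AU018091 is named to complete a count, Xist beside the Y-linked counts, and miR-290 hairpin rows where counts share them.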

Additional observations from a re-analysis of the deposited data

How the results depend on the processing

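Over the 17 alternatives, 141 of 153 recomputed fold changes of the 9 tested genes kept their direction and call, and the other 12 kept their direction without the call; Dicer1, Drosha, Dgcr8, Xpo5 and Lin28b were called lower in every alternative. The number of the 9 called lower ran from 5 to 7 when each line was left out in turn, with 5 without KO line 2, and none was called higher. Of the named pathway genes, 675 of 731 recomputed values kept direction and call, 43 lost and 11 gained it. Zc3h7b changed sign, to -0.0352 with GC trends removed and to -0.032 with those trends removed and the replicate number as a block. Of 374 list counts, 40 moved by over 1.5 times. With the longest transcript as length, Ago2 made up 62.5% of the Argonaute level in KO and 62.3% in WT, and Ago1 34.3% in WT. The submitters' extraction protocol speaks of 3 pairs, but the labels do not say whether same-numbered lines form them. Same-numbered lines of the 2 genotypes did not deviate together in every pair (correlations of 0.0885, -0.0198 and 0.110 for numbers 1, 2 and 3). The values for numbers 1 and 3 were above that of any differently numbered pair (at most 0.0629), but not every line correlated best with its own number. With 3 lines per genotype this cannot decide whether lines were paired, and the main fit did not treat the numbers as pairs. With the replicate number as a block, 4055 genes were higher and 3779 lower, against 3905 and 3528 without it, and 8 of the 9 genes were lower in both. The alternative without both shallow libraries was chosen after seeing the data. Depth limits Ago4, with 48 counts in all, and the hairpin rows.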
